A study of Mus musculus with 9 samples.

Results

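The genes for cytosolic ribosomal proteins were followed in the RNA of whole mouse testes. Members were all protein-coding genes whose symbol is Rpl or Rps with a number, together with Rplp0, Rplp1, Rplp2 and Rpsa. Pseudogenes, ribosomal S6 kinases and mitochondrial ribosomal proteins were not members. This gave 84 of the 32035 genes with a transcript in the tables. Of these, 77 encode the core proteins that ribosomes of most tissues hold, with 43 of the large subunit, 31 of the small subunit and 3 of the stalk. The other 7 are paralogues of a core gene, namely Rpl3l, Rpl7l1, Rpl10l, Rpl22l1, Rpl36al, Rpl39l and Rps27l. The core genes Rpl10, Rpl36a, Rpl39 and Rps4x lie on the X chromosome.

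The samples were testes of 3 WT, 3 Kpna6ΔIBB/ΔIBB and 3 Kpna6-/- males, all 15 weeks old and on the C57Bl6/N strain. Kpna6 encodes importin α7, an adaptor that carries proteins into the nucleus. Kpna6ΔIBB/ΔIBB mice lack exon 2 of the gene, and their RNA is translated from a cryptic start in exon 3 into a protein without the importin β binding domain. Kpna6-/- mice carry a gene trap in intron 1, and both lines were backcrossed for 10 generations. As the study describes them, Kpna6-/- mice lack the protein in Sertoli cells but retain it in developing spermatids, so this line is not a loss in every cell of the testis. The labels do not say whether the 3 samples of a group came from separate litters or days.

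Ribosomes are built from ribosomal RNA and the core proteins, so the core genes are expressed in every cell that makes ribosomes. Male germ cells are a special case, because the X chromosome is silenced during the meiotic pachytene stage while translation has to go on. Several X-linked ribosomal protein genes have given rise to autosomal retrocopies that are transcribed in spermatocytes and spermatids. Rpl10l is the best known of these, and spermatocytes without it do not complete meiosis. Rpl39l is likewise found mainly in male germ cells. Rpl36al is expressed more widely, and Rpl3l is known from skeletal and heart muscle.

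The coding sequences of the 3 X-linked genes and their autosomal paralogues are shown because they decide whether reads of a pair can be separated. They were read from GENCODE M21 transcripts, with gene positions on GRCm38. Rpl39 (chromosome X, 37082520 to 37085402, minus strand) and Rpl39l (chromosome 16, 10170226 to 10174911, plus strand) both have a coding sequence of 156 bases, shown whole. For Rpl10 (chromosome X, 74270812 to 74273135, plus strand), Rpl10l (chromosome 12, 66283379 to 66284401, minus strand), Rpl36a (chromosome X, 134585654 to 134588062, plus strand) and Rpl36al (chromosome 12, 69182731 to 69184083, minus strand), the first 150 coding bases are given. Capitals mark the bases that differ within a pair.
Rpl39: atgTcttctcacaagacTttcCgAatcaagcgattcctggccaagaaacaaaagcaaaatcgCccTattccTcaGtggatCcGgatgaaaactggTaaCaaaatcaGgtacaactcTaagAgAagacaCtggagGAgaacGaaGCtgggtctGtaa
Rpl39l: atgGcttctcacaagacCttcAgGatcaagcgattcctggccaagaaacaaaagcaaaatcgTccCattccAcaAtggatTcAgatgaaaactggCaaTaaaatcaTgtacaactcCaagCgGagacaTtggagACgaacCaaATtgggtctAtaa
Rpl10: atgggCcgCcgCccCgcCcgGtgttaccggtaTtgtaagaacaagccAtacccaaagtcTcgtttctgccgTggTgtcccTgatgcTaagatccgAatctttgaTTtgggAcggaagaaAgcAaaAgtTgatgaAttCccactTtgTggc
Rpl10l: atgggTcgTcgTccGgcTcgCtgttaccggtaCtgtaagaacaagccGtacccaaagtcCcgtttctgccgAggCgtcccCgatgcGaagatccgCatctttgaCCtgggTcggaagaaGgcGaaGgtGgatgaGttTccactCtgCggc
Rpl36a: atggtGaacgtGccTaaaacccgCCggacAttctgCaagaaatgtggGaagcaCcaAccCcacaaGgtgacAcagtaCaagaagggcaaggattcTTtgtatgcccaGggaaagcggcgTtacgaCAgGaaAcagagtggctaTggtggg
Rpl36al: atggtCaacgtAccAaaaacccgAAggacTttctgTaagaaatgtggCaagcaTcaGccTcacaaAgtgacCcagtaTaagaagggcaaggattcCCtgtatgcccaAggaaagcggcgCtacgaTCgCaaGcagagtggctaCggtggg

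Rpl39 and Rpl39l differed at 23 coding bases and were 85.3% identical. Rpl10 and Rpl10l, both with 645 coding bases, were 84.8% identical, and Rpl36a and Rpl36al, both with 321, were 87.9% identical. Counted over all their transcripts, Rpl10l and Rpl36al shared none of their stretches of 31 bases with the parent gene, and Rpl39l shared 8 of 828. Identity was lower in the other pairs, from 76.1% for Rps27l and Rps27 to 50.1% for Rpl7l1 and Rpl7. The differences are spread along the printed sequences, so that reads from parent and paralogue can be told apart in nearly all of their length.

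Copies elsewhere in the genome were a larger problem than the paralogues. Of the 84 members, 78 had at least 1 near-identical gene outside the list, meaning a match of at least 100 bases at 95% identity that covered at least 0.5 of the other gene's transcript. There were 538 such genes. For 6 core genes these copies held more of the WT signal than the gene itself. Rps12, a small-subunit protein, was listed at 0 in all 9 testes, while its copy Rps12-ps3 on chromosome 19 held 781 ± 41.4 TPM (transcript abundance corrected for length and depth; SD, n = 3) in WT. Rpl10, Rpl12, Rpl27, Rpl27a and Rpl5 were the others. Rpl10 had 22.0 ± 4.83 TPM in WT, and Rpl10-ps3 on chromosome 9, identical to it over 740 bases, had 65.6 ± 3.67 TPM. Rps12-ps3 and Rpl10-ps3 are annotated as protein-coding in M21 despite their names. Reads from identical stretches of a gene and its copy cannot be assigned to 1 locus. Rps12-ps3 matched Rps12 at 96.9% over 490 bases, and how far their reads can be separated was not tested. Levels are therefore given with and without the near-identical genes added.

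Depth was similar among the testes, with 24859751 to 31484692 estimated counts on genes. Kpna6, the targeted gene (chromosome 4, 129643980 to 129672767), had 201, 325 and 334 CPM (counts scaled to library size, after TMM normalization) in WT replicates 1 to 3 and 81.2 to 85.3 CPM in Kpna6ΔIBB/ΔIBB testes (log2 fold change -1.79 ± 0.15, edgeR quasi-likelihood test, adjusted p = 1.94e-05). In Kpna6-/- testes it had 247 to 262 CPM, within the WT range (-0.18 ± 0.14, SE, adjusted p = 0.586). Without WT replicate 1 the latter difference was -0.38 (adjusted p = 3.45e-04). The RNA level thus sets the Kpna6ΔIBB/ΔIBB testes apart, whereas for Kpna6-/- the call rests on WT replicate 1. WT replicate 1 was the lowest WT testis for Kpna6, and it matters below because it was also the highest WT testis for Rpl10, Rpl36a, Rpl39 and Rps4x.

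In WT testes the X-linked core genes stood at the low end of the family. With near-identical genes added, Rps4x (32.5 ± 3.31 TPM), Rpl39 (59.7 ± 8.47), Rpl10 (89.4 ± 8.35) and Rpl36a (105 ± 5.73) were the 4 lowest of the 77 core genes. The next in order were autosomal, Rps3 with 116 ± 7.58 TPM and Rpsa with 119 ± 6.04 TPM. For the neighbours Rpl36a and Rps3, and for Rps3 and Rpsa, the difference was smaller than the sum of their SDs. Without the copies, Rpl10, Rps4x, Rpl39 and Rpl36a ranked 3, 5, 7 and 8 from the lowest, and the genes below or between them (Rps12, Rpl12, Rpl27 and Rpl5) were those whose signal lay mainly on a copy. The median core gene had 423 ± 9.90 TPM in WT with the near-identical genes added and 360.4 ± 7.77 TPM without them.

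At the high end of the core genes were Rps27 with 3328 ± 304 TPM, Rpl41 with 2165 ± 138, Rps29 with 2044 ± 132, Rpl36 with 1683 ± 119 and Rpl38 with 1359 ± 105 TPM. All encode small proteins. The WT values of Rpl41 and Rps29 overlapped, and those of the other neighbours in this order did not. The order depends on the measure, because TPM divides by transcript length. Abundance-weighted lengths were 346 bases for Rps27, 557 for Rpl41, 390 for Rps29, 404 for Rpl36 and 367 for Rpl38. In WT CPM, Rps27 had 232 ± 17.7, Rpl41 505 ± 38.0, Rps29 202 ± 10.8, Rpl36 184 ± 11.0 and Rpl38 113 ± 7.48. Rplp0, with 776 ± 16.8 TPM, had 685 ± 7.14 CPM.

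**Figure D1:**
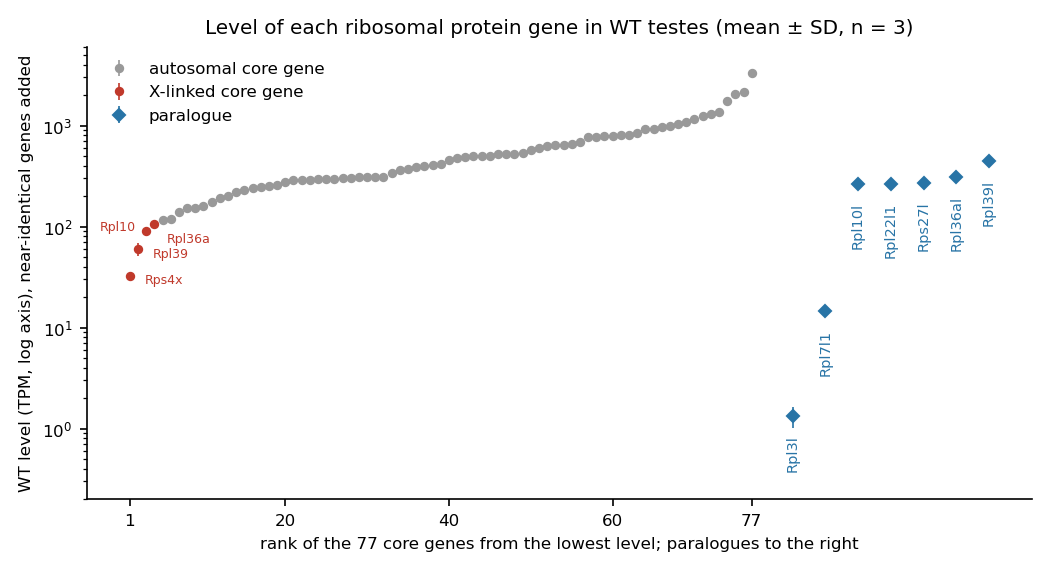
Mean level of each member in WT testes (TPM, log axis, near-identical genes added; bars are SD, n = 3), with the 77 core genes in order of level and the 7 paralogues to the right. The 4 X-linked genes are the lowest core genes, from 32.5 to 105 TPM, whereas Rpl10l, Rpl36al and Rpl39l stand between 262 and 444 TPM.

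The autosomal paralogues of the X-linked genes were among the well expressed members. Rpl39l had 442, 446 and 444 TPM in the WT testes against 59.0, 36.2 and 39.6 TPM for Rpl39. Rpl10l had 256, 267 and 262 TPM against 27.3, 18.0 and 20.6 TPM for Rpl10. Rpl36al had 308, 313 and 303 TPM against 79.5, 66.7 and 74.2 TPM for Rpl36a. In each pair the paralogue exceeded the parent in every testis. As a share of the pair, Rpl10l made up 92.2% ± 1.71 (SD, n = 3), Rpl39l 90.8% ± 2.30 and Rpl36al 80.7% ± 1.54 of the WT TPM. When near-identical genes were added to either partner, the shares were 74.6% ± 2.16, 88.2% ± 1.52 and 74.6% ± 1.10.

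Rps4x has an autosomal copy of its own. Rps4l (chromosome 6, 148354656 to 148355598) is annotated in M21 as a transcribed processed pseudogene and is therefore not a member, but it was listed at 118, 129 and 122 TPM in WT testes, against 35.5, 29.0 and 33.0 TPM for Rps4x. Its share of the pair was 79.1% ± 2.43. All 4 X-linked genes thus had an autosomal relative with a higher level in all 9 testes. How far reads of Rps4l and Rps4x can be separated was not examined.

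The paralogues of autosomal genes did not follow this pattern. Rpl22l1, whose parent Rpl22 binds RNA outside the ribosome as well, took 47.8% ± 2.09 of its pair in WT, with 263 ± 8.81 TPM against 288 ± 22.6 TPM for Rpl22. Rps27l, also known as a target of p53, had 271 ± 8.38 TPM, which was 7.56% ± 0.433 of the pair with Rps27. Rpl7l1 had 14.7 ± 0.490 TPM (6.02% ± 0.175 of its pair) and Rpl3l 1.32 ± 0.302 TPM (0.865% ± 0.183), both far below Rpl7 and Rpl3.

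**Figure D2:**
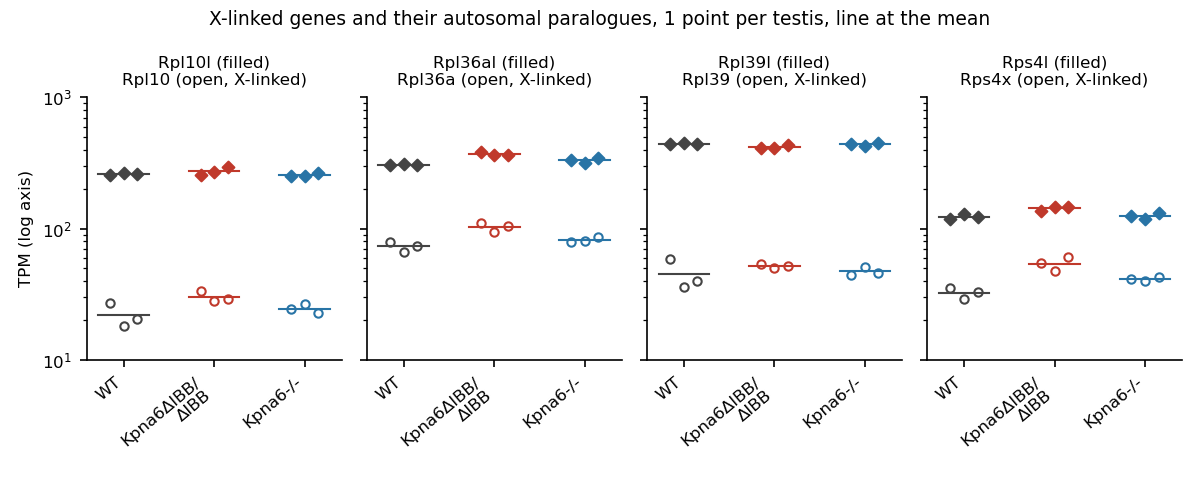
Level (TPM, log axis) of Rpl10, Rpl36a, Rpl39 and Rps4x (open circles) and of their autosomal relatives (filled diamonds) in each of the 9 testes, with a line at the group mean. The filled symbols lie above the open ones in every testis and genotype, and Rps4x rises from 32.5 TPM in WT to 54.1 TPM in Kpna6ΔIBB/ΔIBB testes.

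Between Kpna6ΔIBB/ΔIBB and WT testes, 21 of the 76 core genes tested were higher and 2 were lower (edgeR quasi-likelihood test, Benjamini-Hochberg adjusted p below 0.05 over all genes). Over all 18797 genes tested, 17.7% were higher and 18.9% lower, 36.6% in all, and the difference between core genes and all genes was not tested. Without WT replicate 2 the count of higher genes was 13, in a fit with fewer testes for which the share over all genes is not given. Rps12 was the core gene not tested. The changes were small: the median log2 fold change of the core genes was 0.08, beside 0.01 over all genes, and 58 were above 0, beside 51.3% of all genes. The groups did not overlap in 31 core genes that were higher and 5 that were lower, beside 24.8% and 25.2% of all genes. By subunit, 8 of 43 large-subunit genes were higher and 2 lower, 10 of 30 small-subunit genes were higher and none lower, and all 3 stalk genes were higher. With near-identical genes added, 27 of 77 core genes were higher and 2 lower, beside 17.5% and 19.2% of all genes. Rps12 could then be measured, with 149, 143 and 134 CPM in WT and 174, 177 and 174 CPM in Kpna6ΔIBB/ΔIBB testes (0.30 ± 0.04, adjusted p = 4.49e-04).

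Rps4x, an X-linked protein of the small subunit, rose most. It had 20.8, 17.1 and 18.9 CPM in WT and 28.8, 25.3 and 32.2 CPM in Kpna6ΔIBB/ΔIBB testes. Every mutant value lay above every WT value, with a log2 fold change of 0.61 ± 0.10 (SE, adjusted p = 7.82e-04). In Kpna6-/- testes it had 24.1, 23.0 and 25.4 CPM, with a mean between those of the other groups and values that overlapped Kpna6ΔIBB/ΔIBB.

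Rpl14, an autosomal protein of the large subunit, had 73.0, 75.3 and 82.2 CPM in WT and 109, 109 and 109.7 CPM in Kpna6ΔIBB/ΔIBB testes. The 3 mutant testes were almost identical and clear of the WT range (log2 fold change 0.51 ± 0.05, adjusted p = 4.25e-05). Rpl36a, also X-linked, had 13.8, 12.1 and 13.1 CPM in WT against 17.7, 15.1 and 16.5 CPM (0.34 ± 0.09, adjusted p = 0.0124). Rpl36a lost its call without Kpna6ΔIBB/ΔIBB replicate 1 (adjusted p = 0.0525) or WT replicate 2 (adjusted p = 0.0564).

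Rps19, the protein most often mutated in Diamond-Blackfan anaemia, rose from 77.8, 78.7 and 78.7 CPM to 99.4, 94.4 and 93.0 CPM (0.29 ± 0.04, adjusted p = 5.55e-04). Rplp1 belongs to the stalk, which recruits elongation factors to the ribosome. It rose from 196, 180.3 and 186 CPM to 226, 217 and 220.0 CPM (0.24 ± 0.04, adjusted p = 0.00111). Rps4x, Rpl14, Rps19 and Rplp1 passed the threshold in all 15 alternative settings.

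The 2 core genes that were lower encode small proteins of the large subunit. Rpl37 had 156, 148 and 138 CPM in WT and 129, 132 and 134 CPM in Kpna6ΔIBB/ΔIBB testes (-0.16 ± 0.05, adjusted p = 0.0267). Rpl41 had 546, 496 and 472 CPM against 455, 452 and 457 CPM (-0.15 ± 0.05, adjusted p = 0.0349). The groups did not overlap for either gene, but the gaps were narrow, and the calls held in 9 and 8 of the 15 alternative settings. They were lost for Rpl37 without Kpna6ΔIBB/ΔIBB replicate 1 or 2 or WT replicate 1 or 2, and for Rpl41 without any 1 of these or without Kpna6ΔIBB/ΔIBB replicate 3.

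Scaling decided much of the count. The median of all genes was 0.01 (log2) with TMM scaling and 0.11 when only library size was used. On that second scale 53 core genes were higher and none lower, beside 28.8% and 12.4% of all genes, and the core median was 0.18. The core median exceeded that of all genes by about the same amount on either scale. Rpl37 and Rpl41 then had log2 fold changes of -0.06 and -0.05 and were not called.

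The same scaling applies to the summed level. The 77 core genes together had 42747, 40634 and 40248 TPM in WT and 46380.2, 45216 and 47282 TPM in Kpna6ΔIBB/ΔIBB testes, with no overlap. This was 4.18% ± 0.132 of the TPM on genes in WT and 4.69% ± 0.113 in Kpna6ΔIBB/ΔIBB testes, a log2 ratio of 0.17. In TMM-normalized CPM the sums were 11907 ± 295 and 12400.1 ± 124, a log2 ratio of 0.06. Kpna6-/- testes had 12449.5, 12379 and 12732 CPM, above every WT testis, with a log2 ratio to WT of 0.07. In TPM they had 42501, 42280.5 and 44627, which overlapped WT, with the same log2 ratio of 0.07. The rise in CPM was thus not particular to Kpna6ΔIBB/ΔIBB testes. No test was made on these sums.

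**Figure D3:**
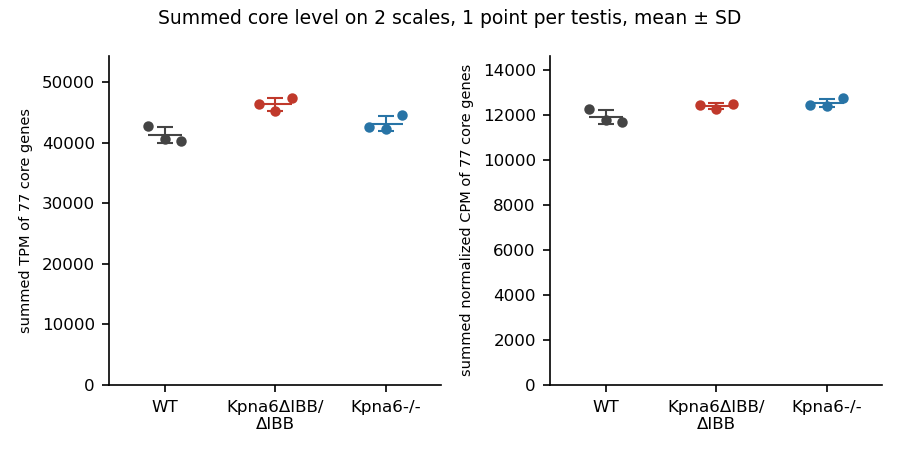
Summed level of the 77 core genes in each testis, in TPM (left) and in TMM-normalized CPM (right), with mean and SD (n = 3). Kpna6ΔIBB/ΔIBB testes are set apart from WT in TPM, at 45216 to 47282 against 40248 to 42747, and much less so in CPM. Kpna6-/- testes overlap WT in TPM and lie above WT in CPM, at 12379 to 12732 against 11687 to 12243.

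Of the 4 X-linked genes, Rps4x and Rpl36a passed the test in Kpna6ΔIBB/ΔIBB testes, both higher, beside 17.7% of all genes. The median log2 fold change of the 4 was 0.34, beside 0.07 for the 72 autosomal core genes tested. Rpl10 had 12.1, 8.08 and 9.05 CPM in WT and 13.8, 11.2 and 12.1 CPM in mutant testes, which overlap (0.34 ± 0.14, adjusted p = 0.0845). With its near-identical copies added it had 38.4, 32.5 and 36.0 CPM against 54.0, 47.9 and 52.8 CPM, and the difference was called (0.54 ± 0.07, adjusted p = 2.47e-04). Rpl39 had 16.4, 10.2 and 10.9 CPM in WT and 13.6, 12.8 and 13.1 CPM in mutant testes (0.08 ± 0.15, adjusted p = 0.725). Here WT replicate 1 decided the value: without it the log2 fold change was 0.32 (adjusted p = 0.0229) for Rpl39 and 0.53 (adjusted p = 0.00773) for Rpl10.

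Among the paralogues, 2 of 7 were higher and 2 were lower in Kpna6ΔIBB/ΔIBB testes, beside 17.7% and 18.9% of all genes. Rpl39l fell from 182, 185 and 180.3 CPM to 153, 154 and 164 CPM (-0.21 ± 0.04, adjusted p = 0.00225). Rpl22l1 fell from 58.1, 59.5 and 55.5 CPM to 51.5, 47.4 and 49.6 CPM (-0.22 ± 0.05, adjusted p = 0.00801). Both moved against the core median, and all 3 mutant testes lay below all 3 WT testes.

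These falls were relative to the median gene. With library size only, Rpl39l had a log2 fold change of -0.11 (adjusted p = 0.0380) and Rpl22l1 of -0.12 (adjusted p = 0.0897), and in limma on log2(TPM + 1) they had -0.08 (adjusted p = 0.130) and -0.09 (adjusted p = 0.200).

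Rpl36al was higher, with 74.6, 71.3 and 71.4 CPM against 65.4, 67.2 and 64.7 CPM in WT (0.14 ± 0.05, adjusted p = 0.0289). Rpl7l1, which acts in assembly of the large subunit, had 33.1, 32.1 and 32.7 CPM against 27.8, 29.6 and 28.5 CPM (0.19 ± 0.06, adjusted p = 0.0204). Both calls were lost without Kpna6ΔIBB/ΔIBB replicate 1 or 2 or WT replicate 1, and that of Rpl36al also without WT replicate 2 or 3. With every gene added that matches a stretch of at least 100 bases, Rpl7l1 was called in the opposite direction (-0.09, adjusted p = 0.0315), so its direction depends on how such genes are treated. Rpl10l overlapped between the groups, with 161, 168 and 161 CPM in WT and 146, 152 and 169.8 CPM in mutant testes (-0.06 ± 0.06, adjusted p = 0.418), and its sign changed with the scaling. Rps27l (-0.03 ± 0.05, adjusted p = 0.658), whose sign changed likewise, and Rpl3l (0.30 ± 0.31, adjusted p = 0.485) were not called.

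**Figure D4:**
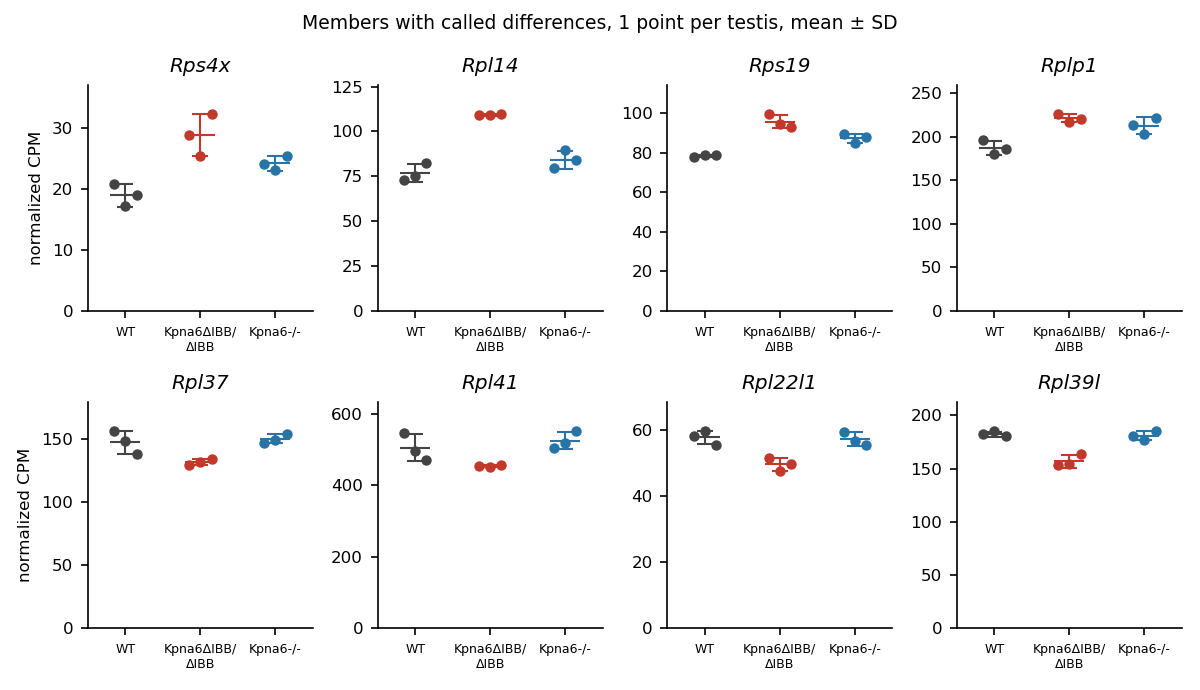
TMM-normalized CPM of 8 members in each testis, with mean and SD (n = 3). Rps4x, Rpl14, Rps19 and Rplp1 are higher and Rpl37, Rpl41, Rpl22l1 and Rpl39l lower in Kpna6ΔIBB/ΔIBB than in WT testes, with no overlap between these 2 groups, whereas the Kpna6-/- values of the last 4 overlap the WT values.

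The balance within a pair does not depend on scaling between libraries. For 8 pairs, Rps4l with Rps4x included, log2 of the ratio of paralogue to parent counts was compared by a two-sided exact permutation test, which cannot go below p = 0.1 with 3 against 3. Between Kpna6ΔIBB/ΔIBB and WT testes the ratio did not overlap in 3 pairs. Single genes without overlap in CPM were 24.8% (higher) and 25.2% (lower) of all genes, and the share over ratios of other gene pairs is not given. The difference in log2 ratio, mutant minus WT, was -0.26 for Rpl22l1 and Rpl22, -0.51 for Rps4l and Rps4x and 0.18 for Rpl7l1 and Rpl7. Each had an exact p = 0.1, the smallest possible. As a share of the TPM of its pair, Rpl22l1 overlapped, with 46.1%, 50.1% and 47.2% in WT and 46.3%, 44.5% and 43.9% in Kpna6ΔIBB/ΔIBB testes. For the 3 X-linked pairs of members the difference in log2 ratio was -0.43 for Rpl10l (exact p = 0.3), -0.32 for Rpl39l (exact p = 0.4) and -0.20 for Rpl36al (exact p = 0.2), and the groups overlapped. With near-identical genes added, the differences were -0.61 for Rpl10l and -0.16 for Rpl36al, both without overlap (exact p = 0.1 each), and -0.30 for Rpl39l with overlap (exact p = 0.4). No pair can pass an adjusted threshold in this design. The share of Rpl10l with its copies added was 74.6% ± 2.16 in WT and 65.8% ± 2.14 in Kpna6ΔIBB/ΔIBB testes. Without them it was 90.4%, 93.7% and 92.7% in WT and 88.4%, 90.6% and 91.0% in Kpna6ΔIBB/ΔIBB testes.

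In Kpna6-/- testes, 1 of 76 core genes was higher than in WT and none was lower. The background was 0.889% higher and 0.712% lower of 18681 genes, 1.60% in all. At an unadjusted p under 0.05, 23 core genes were higher and 1 was lower, beside 7.79% and 7.08% of all genes. DESeq2 called 6 higher (1.36% of all genes), and edgeR without a filter on low counts called 4 (1.33% of 26307 genes). The log2 fold change was above 0 for 69 of 76, with a median of 0.07, beside 50.7% of all genes above 0 and a median of 0.00. The groups did not overlap in 26 core genes, all higher in Kpna6-/- testes, beside 10.2% of all genes that were higher and 9.79% that were lower without overlap. With 1 exception, these changes did not pass the test over all genes. The lowest value was that of Rpl11 (-0.24, adjusted p = 0.256), which varied between the Kpna6-/- testes.

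The gene called was Rpsa, the laminin receptor and a protein of the small subunit. It had 157, 148 and 137 CPM in WT and 177, 176 and 171 CPM in Kpna6-/- testes (0.24 ± 0.05, adjusted p = 0.0301). The call was lost without any 1 of the Kpna6-/- testes or without WT replicate 2 or 3, at the same direction. Rps4x had the largest positive log2 fold change, 0.35 ± 0.08 (adjusted p = 0.0526), with no overlap between the groups. It passed without WT replicate 1 (0.43, adjusted p = 0.0133). With all testes kept it passed in DESeq2 (0.35, adjusted p = 0.0151) and in edgeR without a filter (0.35, adjusted p = 0.0144). In the remaining alternative settings it did not pass.

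None of the 7 paralogues was called in Kpna6-/- testes, and their log2 fold changes ran from -0.03 to 0.17. At an unadjusted p under 0.05, 2 of 7 were higher, beside 7.79% of all genes. Rpl39l had 181, 177 and 185 CPM and Rpl10l 157, 156 and 168 CPM, both overlapping WT. Rpl36al (0.13, adjusted p = 0.253) and Rpl7l1 (0.17, adjusted p = 0.175) did not overlap WT. The log2 ratio of Rps4l to Rps4x differed from WT by -0.34 with no overlap (exact p = 0.1), and the other 7 ratios overlapped. With copies added, that of Rpl10l did not overlap either (-0.22, exact p = 0.1).

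**Figure D5:**
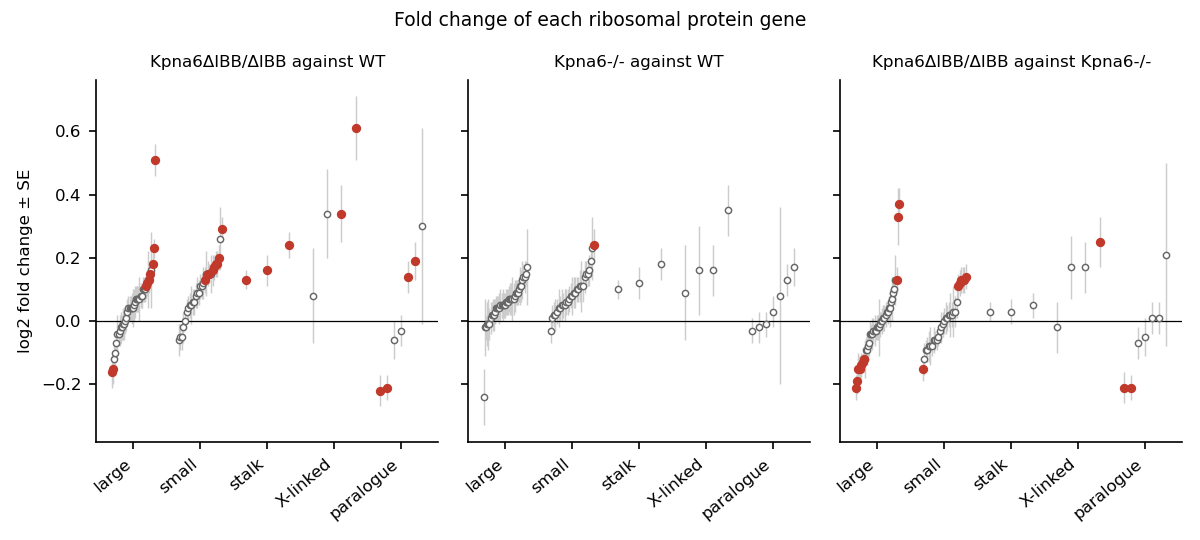
Log2 fold change with SE of each member tested, in 3 comparisons and by group, with the X-linked core genes apart from the other large- and small-subunit genes. Filled points passed an adjusted p of 0.05 (edgeR). Between Kpna6ΔIBB/ΔIBB and WT testes 21 core genes were higher and 2 lower, between Kpna6-/- and WT testes 1 was higher.

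Comparing the mutant lines directly, 10 core genes were higher and 9 lower in Kpna6ΔIBB/ΔIBB than in Kpna6-/- testes, beside 13.5% and 16.8% of 18752 genes (30.3% in all). Without Kpna6-/- replicate 2 or 3 the count of higher genes was 3, and without Kpna6ΔIBB/ΔIBB replicate 2 or Kpna6-/- replicate 3 the count of lower genes was 3. The share over all genes in these fits with fewer testes is not given. The core median was -0.01, against 0.00 over all genes. Of the large-subunit genes, 3 were higher and 8 lower, and of 30 small-subunit genes, 7 were higher and 1 lower. With library size only, the split was 31 higher and 1 lower, beside 26.3% and 10.8% of all genes, while the median of all genes moved from 0.00 to 0.10.

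Rpl14 differed most, with 109 to 109.7 CPM against 79.4, 89.5 and 83.9 CPM (0.37 ± 0.05, adjusted p = 1.26e-04). Rpl11, which also binds Mdm2, had 172, 172 and 179 CPM in Kpna6ΔIBB/ΔIBB and 129, 166 and 119 CPM in Kpna6-/- testes (0.33 ± 0.09, adjusted p = 0.0203). The Kpna6-/- testes differed widely among themselves in Rpl11, and the call was lost without Kpna6-/- replicate 1 or 3 and in DESeq2 (adjusted p = 0.0812). Rps4x was higher by 0.25 ± 0.08 (adjusted p = 0.0425), with overlapping values, and its call was lost without Kpna6ΔIBB/ΔIBB replicate 1 or 3 or any 1 Kpna6-/- testis and with all 9 samples in 1 fit (adjusted p = 0.0539). Rpl13a was also higher (0.13 ± 0.04, adjusted p = 0.0166), and its call was lost without Kpna6-/- replicate 2.

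Rpl41 (-0.21 ± 0.04, adjusted p = 0.00109), Rpl37 (-0.19 ± 0.04, adjusted p = 0.00240), Rpl37a (-0.15 ± 0.04, adjusted p = 0.0132), Rps27 (-0.15 ± 0.04, adjusted p = 0.0135) and Rpl7 (-0.15 ± 0.04, adjusted p = 0.00737) were lower. The calls of Rpl37a and Rps27 were lost without Kpna6ΔIBB/ΔIBB replicate 2 or Kpna6-/- replicate 3. Of the paralogues, Rpl39l (-0.21 ± 0.04, adjusted p = 0.00218) and Rpl22l1 (-0.21 ± 0.05, adjusted p = 0.00657) were lower and none was higher, beside 16.8% and 13.5% of all genes. Both had no overlap in CPM but overlap in TPM. These calls depended on scaling too. With library size only Rpl22l1 had -0.11 (adjusted p = 0.0990), and in limma Rpl22l1 had -0.06 (adjusted p = 0.325) and Rpl39l -0.07 (adjusted p = 0.205). The comparison shares the Kpna6ΔIBB/ΔIBB testes with the one against WT. Of the pair ratios, those of Rpl22l1 (-0.25) and Rpl7l1 (0.16) did not overlap and, with copies added, neither did those of Rpl10l (-0.38) and Rpl36al (-0.15), each at an exact p = 0.1. The TPM share of Rpl22l1 did overlap, with 46.3%, 44.5% and 43.9% in Kpna6ΔIBB/ΔIBB and 51.8%, 45.8% and 47.7% in Kpna6-/- testes.

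Transcript length was set beside these differences. Over the 76 core genes, Spearman's rho between log2 fold change and the abundance-weighted transcript length was 0.26 for Kpna6ΔIBB/ΔIBB against Kpna6-/- testes and 0.19 against WT, beside 0.07 and 0.03 over all genes. For Kpna6-/- against WT it was -0.17, beside -0.08 over all genes. These are correlations across genes, which share libraries and are no replicates. The fragment length implied by the tables was similar in all libraries, with medians of 273.9 to 284.6 bases. Its part in the result was not tested.

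Other genes of the pathway are given for Kpna6ΔIBB/ΔIBB against WT testes, where 17.7% of all genes were higher and 18.9% lower, and no list was tested against these shares. Of 34 genes for ribosome assembly and the nucleolus, 11 were higher and 3 lower, with a median log2 fold change of 0.10. Among them were Ncl, nucleolin (0.36, adjusted p = 7.04e-05), Fbl, the methyltransferase fibrillarin (0.33, adjusted p = 0.00101), Nhp2 (0.39, adjusted p = 4.15e-04) and Gar1 (0.35, adjusted p = 0.00141), both of box H/ACA particles, and Noc2l (0.48, adjusted p = 9.02e-04). Of 11 genes for ribosomal RNA synthesis, 1 was higher, namely Ubtf, the upstream binding factor of RNA polymerase I (0.54, adjusted p = 6.46e-05). Of 78 mitochondrial ribosomal protein genes, 15 were higher and 6 lower, with a median of 0.06.

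Of 6 elongation genes tested, 2 were lower, Eef1g (-0.33, adjusted p = 5.47e-05) and Eef1d (-0.33, adjusted p = 8.34e-05), both subunits of the exchange factor of Eef1a. Of 13 regulators of ribosomal protein mRNAs and growth, 3 were higher and 4 lower, and the latter included the cap-binding protein Eif4e (-0.61, adjusted p = 1.51e-05), Rptor (-0.32, adjusted p = 0.00103) and Mtor (-0.21, adjusted p = 0.00150). Of 6 genes for rescue of stalled ribosomes, 2 were lower, Ltn1 (-0.31, adjusted p = 1.96e-04) and Hbs1l (-0.17, adjusted p = 0.00650).

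In Kpna6-/- against WT testes, where 1.60% of all genes were called, 1 gene of these lists was called, the mitochondrial Mrps9 (-0.71 ± 0.10, adjusted p = 0.00247). In Kpna6ΔIBB/ΔIBB against Kpna6-/- testes, where 13.5% of all genes were higher and 16.8% lower, 7 of 34 assembly genes were higher and 2 lower. Of 78 mitochondrial ribosomal protein genes, 10 were higher and 6 lower, and of 11 rRNA synthesis genes 2 were higher. Of 6 elongation genes and of 6 rescue genes, 2 each were lower. Of the 13 growth regulators, 2 were higher and 4 lower. No list was tested against these shares.

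Cell type markers moved with the genotype beside these results. All 9 Sertoli cell markers were higher in Kpna6ΔIBB/ΔIBB than in WT testes, with a summed 1192 to 1321 TPM against 659 to 731, and 3 of 9 were higher in Kpna6-/- testes (879 to 943 TPM). All 9 markers of elongating spermatids (57739.9 to 65979 TPM against 69363 to 79546) and 7 of 8 of round spermatids (1424 to 1616 TPM against 1668 to 1866) were lower. Of 8 pachytene spermatocyte markers 1 was lower, and of 10 spermatogonium markers 3 were higher and 1 lower. Of 8 macrophage and 7 peritubular and endothelial markers 3 each were higher, of 8 Leydig cell markers 2 were higher, and of 5 erythroid markers 1 was higher and 4 lower. Against Kpna6-/- testes, Kpna6ΔIBB/ΔIBB testes were higher in 9 of 9 Sertoli cell, 5 of 10 spermatogonium, 4 of 8 macrophage and 3 of 7 peritubular and endothelial markers and lower in 9 of 9 elongating spermatid, 7 of 8 round spermatid and 2 of 8 pachytene spermatocyte markers, with 2 of 8 Leydig cell markers higher and 1 lower. Apart from the Sertoli cell markers, 1 marker was called in Kpna6-/- against WT testes, a spermatogonium marker that was lower. Over all genes, 17.7% were higher and 18.9% lower between Kpna6ΔIBB/ΔIBB and WT testes, and 13.5% and 16.8% against Kpna6-/- testes. For Kpna6-/- against WT it was 0.889% and 0.712%, and no marker list was tested against these shares. None of the markers was at 0 in all testes. Marker TPM is a share of the RNA of a testis and no cell count. The paper counted fewer Sertoli cells per tubule in adults of both mutant lines. Its quantitative PCR found no significant change in Rhox5, Wt1 or Cldn11, which are among the Sertoli cell markers here. In whole testes, a change in the number of cells of a type and one in RNA per cell cannot be told apart. The part of cell composition in the changes of the ribosomal protein genes was not tested.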

How the data were processed

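RNA of 9 whole testes was sequenced, 3 per genotype. The authors quantified transcripts with kallisto, version 0.45 per the submitters' processing notes (the study's methods name another version), with mm10 named as the genome build. The deposited tables hold estimated counts and TPM (abundance corrected for transcript length and depth) per transcript and library. The transcript release is not given in the sources used here. By transcript ID, 95301 of 96626 transcripts (98.6%) matched GENCODE M21, which gave gene names, positions and coding sequences.

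Here, estimated counts and TPM were summed per gene, and counts were rounded. Counts were tested with edgeR 4.0.16 in R 4.3.3 (default filter on low counts, TMM scaling, quasi-likelihood test, Benjamini-Hochberg adjustment over all genes, threshold 0.05), each pair of genotypes in its own fit. Ratios within a pair were compared by exact permutation tests. With 3 samples per group and no statement on their origin, p-values measure the spread between these samples only. How well the test finds changes as small as those of the core genes was not tested. Near-identical genes were found with blastn 2.17.0+ (at least 100 bases at 95% identity) and added at a share of at least 0.5 of their transcript, or at any share as an alternative. Other alternatives were DESeq2 1.42.0, no filter, a filter of 10 counts in 3 samples, library size only, a replicate block, all 9 samples in 1 fit, limma 3.58.1 on log2(TPM + 1), and leaving out each testis.

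Named were all paralogues with their parents, the X-linked core genes, the 5 highest and 5 lowest core genes in WT, up to 5 called core genes per direction with the largest change in each comparison, and up to 5 genes per other list, except for a few genes that are not reported here. Other members are named only where a copy holds their signal or a value was singled out after it was seen. The members and lists were chosen with earlier results of these data known. No protein sequences were used here.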

Additional observations from a re-analysis of the deposited data

How the results depend on the processing

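Several counts moved with the scaling between libraries. Between Kpna6ΔIBB/ΔIBB and WT testes, library size alone gave 53 core genes higher and 0 lower, beside 28.8% and 12.4% of all genes. In limma on log2(TPM + 1) it was 51 and 0, beside 3925 and 1622 of 18797 genes. In this order of settings, 1 and 0 paralogues were lower. Against Kpna6-/- testes these settings gave 31 and 36 core genes higher, 1 and 0 lower, 1 and 0 paralogues lower and, in limma, 1 paralogue higher. Of all genes, 26.3% were higher and 10.8% lower with library size, and in limma 3794 of 18752 were higher and 1330 lower. The sum of core genes differed by a log2 ratio of 0.06 from WT and -0.01 from Kpna6-/- in TMM-normalized CPM. Against WT, log2 fold changes below 0 numbered 18 of 76 core genes with TMM, 4 with library size and 2 in limma. Over all 18797 genes they numbered 9160, 6738 and 6524. Against Kpna6-/- testes it was 40, 11 and 6 core genes, beside 9218, 6210 and 5608 of 18752 genes. Turned signs are named for the paralogues and their parents only. With library size and limma, in this order, these were Rpl10l (0.04 and 0.06), Rps27 (0.04 and 0.07) and Rps27l (0.07 and 0.10) against WT. Against Kpna6-/- they were Rpl10l (0.05 and 0.09), Rpl39 (0.08 and 0.13) and Rps27l (0.03 and 0.08). For Kpna6-/- against WT, Rpl22 turned to 0.00 with library size and the ratio of Rpl22l1 to Rpl22 to 0.04 in TPM. With near-identical genes added at any stretch, Rpl7l1 turned to -0.09, -0.02 and -0.08 in the comparisons in the order Kpna6ΔIBB/ΔIBB against WT, Kpna6-/- against WT and Kpna6ΔIBB/ΔIBB against Kpna6-/-. In the first, where Rpl7l1 was then called lower, 1 paralogue was higher and 3 were lower, beside 3275 and 3596 of 18702 genes. In Kpna6-/- against WT, DESeq2 called 6 core genes higher, no filter 4 and limma 0, beside 1.36%, 1.33% and 15 of 18681 of all genes. The causes were not tested.

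Leaving out 1 testis gave, for Kpna6ΔIBB/ΔIBB against WT, 13 (without WT replicate 2) to 22 (without WT replicate 1) core genes higher, 0 to 2 lower and 0 to 2 paralogues higher, 0 without Kpna6ΔIBB/ΔIBB replicate 1 or 2 or WT replicate 1. For Kpna6-/- against WT it gave 0 to 3 core genes higher, 3 without WT replicate 1 and 0 without any other testis, and 0 to 1 lower. For Kpna6ΔIBB/ΔIBB against Kpna6-/- it gave 3 to 7 higher, 3 without Kpna6-/- replicate 2 or 3, and 3 to 10 lower, 3 without Kpna6ΔIBB/ΔIBB replicate 2 or Kpna6-/- replicate 3. These fits have fewer testes for every gene, and the shares over all genes in them are not given here. The counts therefore cannot be read as particular to the core genes. Changes of sign are again given for the paralogues and their parents only. Log2 fold changes that changed sign ran, against WT in Kpna6ΔIBB/ΔIBB testes, from -0.06 to 0.32 for Rpl39, -0.03 to 0.44 for Rpl3l, -0.00 to 0.03 for Rpl7 and -0.10 to 0.00 for Rps27. In Kpna6-/- against WT they ran from -0.06 to 0.05 for Rpl22, -0.04 to 0.01 for Rpl22l1, -0.04 to 0.33 for Rpl39, -0.03 to 0.00 for Rpl39l and -0.10 to 0.20 for Rpl3l. Between the mutants they ran from -0.11 to 0.00 for Rpl10l, -0.02 to 0.10 for Rpl22, -0.03 to 0.04 for Rpl36al, -0.06 to 0.05 for Rpl39, -0.12 to 0.35 for Rpl3l and -0.02 to 0.03 for Rpl7l1.

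Replicate numbers did not pair the testes, with correlations of same-numbered deviations from -0.05 to 0.11. With the replicate number as a block, 22 core genes were higher and 3 lower against WT in Kpna6ΔIBB/ΔIBB testes, 1 and 0 in Kpna6-/- testes, and 10 and 10 between the mutants, with 2 and 2, 0 and 0, and 0 and 2 paralogues. Over all genes it was 3277 and 3516 of 18797, 140 and 89 of 18681, and 2680 and 3352 of 18752. Of the alternatives for single genes and pairs, 245 of 300, 220 of 239 and 278 of 330 in the comparisons in the order above kept their direction and side of the threshold. Depth limits Rpl3l, at 1.32 TPM in WT, most of the paralogues.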
